A study of Mus musculus with 12 samples.

Results

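The iron handling and hepcidin genes comprised the 10 genes Hamp, Hamp2, Bmp6, Hfe, Tfr2, Tfrc, Trf, Slc40a1, Fth1 and Ftl1. They were found by gene symbol, directly or through the Entrez number, among the 26228 named genes of the array. They were represented by 15 of its 61657 spots that are not controls: Hfe, Tfr2, Tfrc, Trf and Ftl1 had 2 spots each, and the other 5 genes had 1. All 15 spots were above background on all 12 arrays.

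The study measured total RNA of female B6C3F1/Nctr mice on Agilent 1-colour arrays, with the dye Cy3. The groups were liver with acrylamide at 0.7 mM (arrays 27, 29 and 30), liver without acrylamide (controls 1, 3 and 4), lung with acrylamide at 0.7 mM (28, 29 and 30) and lung without acrylamide (controls 4, 5 and 6), the numbers being those of the titles. Acrylamide is a small reactive amide, and all groups shared strain and sex. Controls were matched for age, but the sources used here give neither the age nor how, or for how long, the mice were exposed. No label says that arrays of 1 group are from different mice, so the p-values rest on a spread between samples that may be technical.

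A level is given throughout as log2 of the deposited intensity minus log2 of the 75th percentile of its array, so 0 is that percentile and each unit is a doubling. Levels of different spots are not set against each other, because a spot's brightness also depends on its probe. That percentile lay between 294.5 and 621.5 intensity units in liver and between 839.4 and 1376 in lung. The array liver acrylamide 30 stood apart, with the lowest percentile and 34287 spots above background, against 46450 to 51099 on the other 11 arrays. The tissue entry in the labels reads liver for all 12 arrays, whereas the titles and source names of 6 read lung. The mean level of 12 hepatocyte genes was 7.85 to 8.28 on the arrays titled liver and -1.87 to -0.78 on those titled lung, and that of 10 alveolar type 2 cell genes was -2.88 to -0.83 on the arrays titled liver and 5.45 to 5.73 on those titled lung, so the titles were followed. All liver arrays lay on 1 slide and all lung arrays on another, so the slide cannot be told apart from the tissue.

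Body iron is set by hepcidin, a small peptide hormone that hepatocytes secrete. Hepcidin binds ferroportin, the iron exporter encoded by Slc40a1, and causes its breakdown, so that macrophages, gut cells and hepatocytes release less iron. Hepatocytes adjust hepcidin to iron through BMP6, a signal made mainly by the endothelium of the liver sinusoids, and through the membrane proteins HFE and TFR2, while inflammation acts through interleukin 6 and STAT3. Transferrin, encoded by Trf, carries iron in blood, the receptor encoded by Tfrc takes it into cells, and ferritin, built of heavy (Fth1) and light (Ftl1) chains, stores it.

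Mice carry a pair of near-identical hepcidin genes, Hamp and Hamp2. The 250 bases before each start are shown because the values described first are those of this pair. The sequences are RefSeq's for GRCm38.p6. Hamp's lies at chr7:30944030-30944279 and Hamp2's at chr7:30924182-30924431, both on the minus strand and written 5′ to 3′. Capitals mark exact matches to GGCGCC, known as the BMP-responsive element of the hepcidin promoter, and to TTCTTGGAA, its STAT3 element. Both strands were searched.
Hamp: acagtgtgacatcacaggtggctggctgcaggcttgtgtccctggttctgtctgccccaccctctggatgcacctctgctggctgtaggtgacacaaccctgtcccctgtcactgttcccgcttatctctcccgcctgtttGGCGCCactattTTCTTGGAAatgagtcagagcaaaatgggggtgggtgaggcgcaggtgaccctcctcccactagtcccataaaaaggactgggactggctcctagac
Hamp2: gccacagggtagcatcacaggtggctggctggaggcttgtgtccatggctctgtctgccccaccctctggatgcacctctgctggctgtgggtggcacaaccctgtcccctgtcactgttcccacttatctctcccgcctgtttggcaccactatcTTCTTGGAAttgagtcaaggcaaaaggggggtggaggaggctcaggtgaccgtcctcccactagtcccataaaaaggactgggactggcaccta

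The 2 windows aligned with 227 identical bases, 20 mismatches and 6 gap columns, which is 91.9% identity over the ungapped columns. GGCGCC began 109 bases before the start of Hamp and was not found in the Hamp2 window. The aligned Hamp2 bases differ by G4A, counted from 1 at the 5′ end of the motif, with the Hamp base first. TTCTTGGAA was found in both windows, beginning 97 bases before the start of Hamp and 94 before that of Hamp2, and it did not overlap GGCGCC. Among 32851 promoter windows of the same length, 9.59% held GGCGCC on either strand and 0.365% held TTCTTGGAA. A match is a description of the letters only.

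Acrylamide was first compared with no acrylamide in liver. Hamp, the hepcidin gene proper, was the iron gene that stood highest with acrylamide, 1.66-fold by the group means, and Bmp6 followed at 1.61-fold. Hamp2, Tfr2 and Fth1 differed by 0.00, 0.01 and -0.03 log2 units. None of the 10 genes passed the adjusted test, and neither did any of the 21169 genes tested with limma (0% called at adjusted p under 0.05). At unadjusted p under 0.05, 1 of the 10 iron genes (Hamp) was found, against 6.09% (1289) of all genes. The 3 acrylamide arrays lay clear of the 3 controls for 2 of the 10 (Hamp and Slc40a1), against 12.2% of all genes. Of the 10, 6 were higher and 4 lower with acrylamide, with a median difference of 0.01 log2 units, against -0.02 over all genes tested.

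Hamp stood at 6.61, 7.41 and 6.98 on liver acrylamide arrays 27, 29 and 30, against 6.20, 6.36 and 6.24 on liver controls 1, 3 and 4. The groups did not overlap: the lowest acrylamide array, 27, was above the highest control, 3, and array 29 was highest. Before scaling, the spot read 60500, 105524 and 37231 units on acrylamide 27, 29 and 30. On controls 1, 3 and 4 it read 35422, 36571 and 31978. Acrylamide 30, the array with the lowest percentile, was thus only just above control 3 before scaling, so the size of its lead depends on the scaling. The group means were 7.00 ± 0.40 with acrylamide and 6.27 ± 0.08 in controls (SD, n = 3 each), so the acrylamide arrays were also the more scattered. The difference was 0.73 ± 0.22 log2 units (SE), with a 95% interval of 0.19 to 1.28, an unadjusted p of 0.0165 and an adjusted p of 0.784 (limma), and it did not pass the test. Between the 20 alternatives it ran between 0.52 and 1.17. Because the groups did not overlap, leaving out an array or fitting within a slide row could not change its sign. Within slide row 1, which held acrylamide 27 and 30 and controls 1 and 3, it was 0.52, and in row 2 it was 1.17 from a single array of each group.

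Hamp2, the other copy, whose product is not known to act on iron in mice, stood at 7.56, 7.86 and 8.55 on liver acrylamide 27, 29 and 30, against 7.77, 8.43 and 7.77 on controls 1, 3 and 4. The groups overlapped throughout, with acrylamide 30 and control 3 high and the other 4 arrays below them. Before scaling, this bright spot read 117067, 144890 and 110572 units on acrylamide 27, 29 and 30. On controls 1, 3 and 4 it read 105205, 153288 and 92672. That is a range of 1.65-fold, less than the 2.11-fold of the percentile, and acrylamide 30 had the lowest percentile. The difference was 0.00 ± 0.32 (SE), with a 95% interval of -0.77 to 0.78. The array that was highest for Hamp, acrylamide 29, was in the middle of the 6 for Hamp2. Because the genes are near-copies and probe sequences were not used here, how far each spot also detects the other transcript was not tested.

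Bmp6 stood at -2.25, -2.30 and -2.84 on liver acrylamide 27, 29 and 30, against -3.20, -3.61 and -2.64 on controls 1, 3 and 4. Arrays 27 and 29 were above all controls, while 30 lay below control 4, so the groups overlapped. The means were -2.46 ± 0.33 with acrylamide and -3.15 ± 0.49 in controls (SD, n = 3 each). The difference of 0.69 ± 0.30 (SE) had a 95% interval of -0.04 to 1.41, an unadjusted p of 0.0589 and an adjusted p of 0.784 (limma). Its level in untreated lung was far above that in liver, and lung genes moved on the same arrays. Scgb1a1, a secretory gene of club cells, stood at 1.71%, 0.824% and 0.0223% of its untreated lung level on liver acrylamide 27, 29 and 30, against 0.0252% to 0.0485% on the controls. Sftpc, a surfactant gene of alveolar type 2 cells, stood at 1.60%, 0.165% and 0.00535% on those acrylamide arrays, against 0.00148% to 0.00456% on the controls. On acrylamide 27 these were the largest shares. The other surfactant and club cell genes set out this way ran between 0.277% (Sftpa1) and 0.655% (Cbr2) there. On acrylamide 29 those others ran between 0.0586% (Sftpa1) and 0.313% (Cbr2). For Bmp6 the same share was 6.71%, 6.49% and 4.47%, against 3.49%, 2.61% and 5.11% on controls 1, 3 and 4. Set against the control mean, that is 2.98%, 2.75% and 0.74% of the lung level on acrylamide 27, 29 and 30. The controls 1, 3 and 4 themselves lay at -0.25%, -1.13% and 1.38% from that mean. Of the tested marker genes, 5 of 5 of club cells, 5 of 9 of alveolar type 2 cells and 8 of 10 of the liver sinusoidal endothelium were higher with acrylamide. The endothelial list averaged 2.27 to 2.53 with acrylamide and 2.201 to 2.36 in controls. The part of these cells in the Bmp6 values was not tested. In bulk RNA, a changed share of a cell type and a changed amount of RNA per cell cannot be told apart.

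The membrane proteins that report iron to hepcidin differed less. Hfe stood at 2.69, 3.03 and 2.97 on liver acrylamide 27, 29 and 30, against 2.55, 2.67 and 2.71 on controls 1, 3 and 4, so only array 27 lay among the controls. Its difference was 0.25 ± 0.15 (SE, adjusted p = 0.784), and that of its dimmer second spot was 0.39 ± 0.17 (adjusted p = 0.737 over all spots, limma). At that second spot the acrylamide arrays, at -1.72, -1.57 and -1.97, lay above the controls, at -2.14, -2.27 and -2.04. It came nearest to background on acrylamide 30, at 4.49 times the limit. Tfr2, the hepatocyte sensor of iron-loaded transferrin, stood at 6.53, 6.62 and 6.61 on liver acrylamide 27, 29 and 30, against 6.42, 6.61 and 6.70 on controls 1, 3 and 4. The acrylamide arrays lay inside the control range, with a difference of 0.01 ± 0.14 and a 95% interval of -0.33 to 0.35. Its second spot differed by 0.08 ± 0.15.

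Of the uptake genes, Tfrc stood at -1.45, -1.51 and -2.35 on liver acrylamide 27, 29 and 30, against -1.21, -1.42 and -1.88 on controls 1, 3 and 4. The groups overlapped, and the lowest value was that of array 30, the dimmest array. The difference was -0.27 ± 0.31 (SE), and at the second spot of Tfrc -0.81 ± 0.35 (adjusted p = 0.739 over all spots, limma). At that second spot the acrylamide arrays, at -3.60, -3.60 and -3.49, lay below the controls, at -2.77, -2.04 and -3.43. It was dim in liver, at 1.56 to 43.3 times the background limit and lowest on acrylamide 30. Without acrylamide 30 the first spot's difference was 0.02. Trf stood at 8.68, 8.58 and 9.31 on liver acrylamide 27, 29 and 30, against 8.95, 9.03 and 9.12 on controls 1, 3 and 4. Array 30 was above all controls and the other acrylamide arrays below them, and the difference was -0.17 ± 0.22.

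Slc40a1, which encodes the target of hepcidin, stood at 4.76, 4.85 and 4.71 on liver acrylamide 27, 29 and 30, against 4.48, 4.59 and 4.69 on controls 1, 3 and 4. All acrylamide arrays were above all controls, but array 30 was above control 4 by a margin smaller than the spread of either group. The means were 4.77 ± 0.07 with acrylamide and 4.59 ± 0.11 in controls (SD, n = 3 each), a difference of 0.19 ± 0.13 (SE, adjusted p = 0.805). Macrophages of the liver express Slc40a1, and their markers moved in the same direction: with acrylamide, 11 of 11 tested markers of Kupffer cells and macrophages were higher, 8 of them with groups that did not overlap (12.2% of all genes), 2 at unadjusted p under 0.05 (6.09% of all genes) and 0 called by limma. Their mean level was 2.38, 2.28 and 2.16 on acrylamide 27, 29 and 30, against 1.94, 1.57 and 2.05 on controls 1, 3 and 4, and their part in the Slc40a1 values was not tested.

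**Figure D1:**
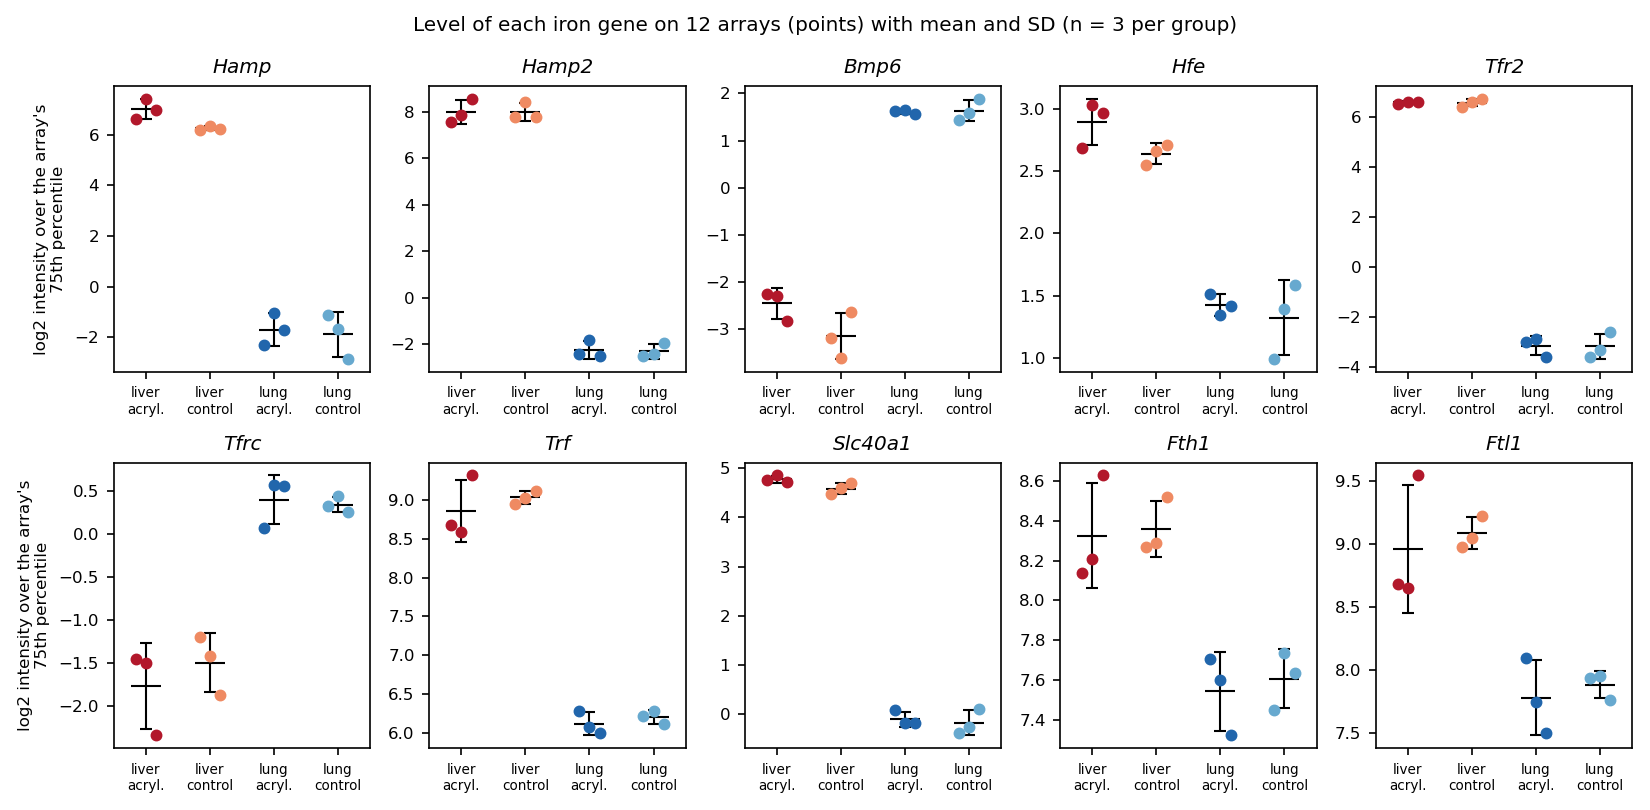
Levels of the 10 iron genes on 12 arrays, 1 panel per gene with its own vertical axis (log2 intensity over the 75th percentile of the array). Points are single arrays and bars the mean and SD of 3 arrays; Hamp and Slc40a1 are the 2 genes whose 3 liver acrylamide points all lie above the 3 liver control points.

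The storage genes were among the brightest spots of the array, and this bears on how their values can be read. Fth1, the ferritin heavy chain with its ferroxidase site, stood at 8.14, 8.21 and 8.63 on liver acrylamide 27, 29 and 30, against 8.27, 8.29 and 8.52 on controls 1, 3 and 4. Ftl1, the light chain, stood at 8.68, 8.65 and 9.55 on liver acrylamide 27, 29 and 30, against 8.98, 9.05 and 9.23 on controls 1, 3 and 4. In both genes arrays 27 and 29 were lowest and array 30 highest, with differences of -0.03 ± 0.18 for Fth1 and -0.13 ± 0.27 for Ftl1 (SE). Before scaling, however, the brighter Ftl1 spot read 255200, 249418 and 220235 intensity units on acrylamide 27, 29 and 30, against 242998, 236830 and 254162 on controls 1, 3 and 4. That is a range of 1.16-fold on liver arrays whose 75th percentile ranged 2.11-fold, and the spot ranked 30 to 42 of 61657. The SD over the 6 liver arrays was 0.08 for its log2 intensity and 0.34 for its scaled level.

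The same held for transferrin. The 2 Trf spots read 255044 to 308520 and 187360 to 254380 intensity units over the liver arrays, whereas Tfr2, Slc40a1 and Hfe, which are dimmer, ranged 2.12-fold, 2.33-fold and 2.21-fold. The dimmer Ftl1 spot ranged 1.52-fold, from 45137 to 68628 units, and its difference was 0.15 ± 0.22, of the opposite sign to the brighter spot. Dividing by the percentile therefore gave Ftl1 and Trf their highest level on acrylamide 30, the array with the lowest percentile. Whether these spots had reached the top of the scale was not tested, and saturation flags were not used here. Ferritin genes also have near-identical copies, so a spot may detect more than 1 of them.

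**Figure D2:**
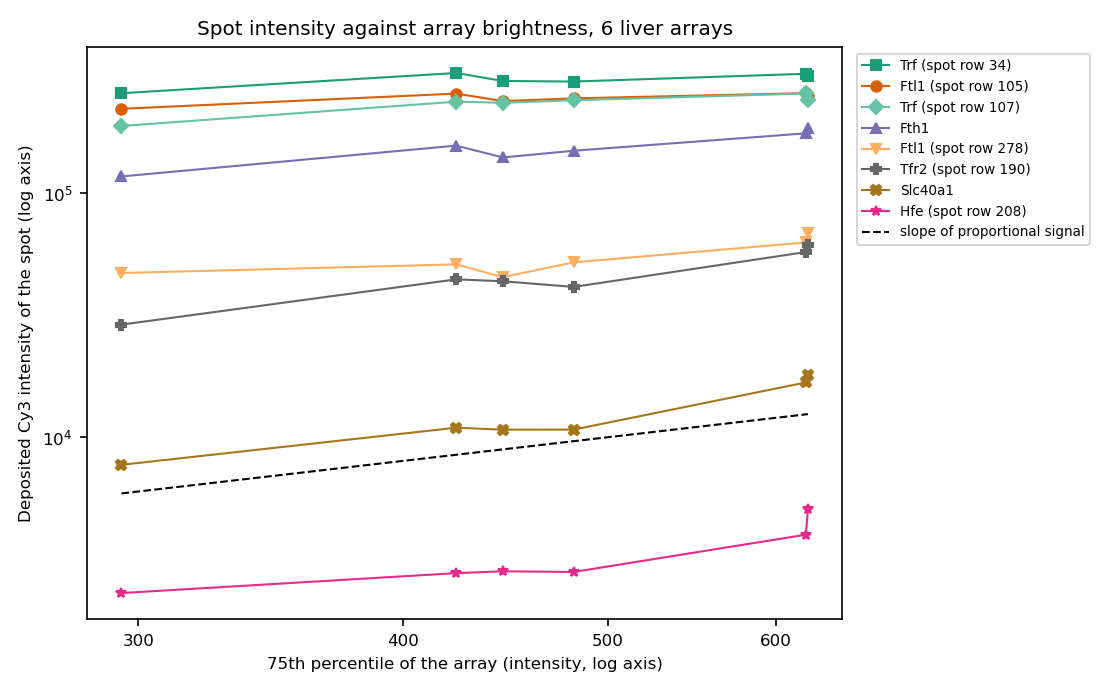
Deposited Cy3 intensity of 8 spots of 6 iron genes (vertical, log axis) against the 75th percentile of each of the 6 liver arrays (horizontal, log axis). The dashed line has the slope of a signal proportional to the percentile; the brighter Ftl1 spot ranges 1.16-fold and stays nearly flat, while Tfr2 and Slc40a1 range 2.12-fold and 2.33-fold and run along the slope.

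In lung, acrylamide arrays were compared with lung controls in the same way. The 10 iron genes differed by -0.10 to 0.18 log2 units, 6 being higher and 4 lower with acrylamide. None of the 10 was called, as was none of the 22252 genes tested (0% at adjusted p under 0.05, limma), and none reached an unadjusted p under 0.05, against 4.97% (1106) of all genes. No iron gene had groups that did not overlap, against 10.9% of all genes. The adjusted p ran between 0.9989 and 0.9994.

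Hamp stood at -2.32, -1.03 and -1.72 on lung acrylamide 28, 29 and 30, against -1.11, -1.65 and -2.84 on lung controls 4, 5 and 6. Both groups spanned over 1 log2 unit and overlapped, with means of -1.69 ± 0.65 with acrylamide and -1.87 ± 0.89 in controls (SD, n = 3 each). The difference of 0.18 ± 0.53 (SE) had a 95% interval of -1.11 to 1.47. The mean level of the hepatocyte genes was -0.78, -0.84 and -1.72 on lung acrylamide 28, 29 and 30. On lung controls 4, 5 and 6 it was -1.58, -1.87 and -0.89. Hamp was highest on acrylamide 29 and lowest on control 6, and the part of hepatocytes in its lung values was not tested.

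Bmp6 stood at 1.63, 1.65 and 1.56 on lung acrylamide 28, 29 and 30, against 1.43, 1.59 and 1.88 on lung controls 4, 5 and 6. The acrylamide arrays lay within the range of the controls, at -0.02 ± 0.14 (SE). Hfe stood at 1.52, 1.34 and 1.41 on lung acrylamide 28, 29 and 30, against 0.99, 1.39 and 1.58 on lung controls 4, 5 and 6. Again the acrylamide arrays lay between the controls, and the difference was 0.10 ± 0.17.

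The acrylamide difference in liver was then set against that in lung, in 1 fit of all 12 arrays. None of the 10 genes was called, and none of 23300 genes (0%, limma); none of the 10 had an unadjusted p under 0.05, against 4.44% (1035) of all genes. The difference between the tissues was 0.71 ± 0.35 log2 units for Bmp6 (SE, 95% interval -0.07 to 1.49, unadjusted p = 0.0687, adjusted p = 0.994). For Hamp it was 0.55 ± 0.62, with a 95% interval of -0.83 to 1.93 (adjusted p = 0.994). The other 8 genes had differences between -0.33 and 0.15. The Hamp and Bmp6 values in liver were thus not shown to differ from those in lung.

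**Figure D3:**
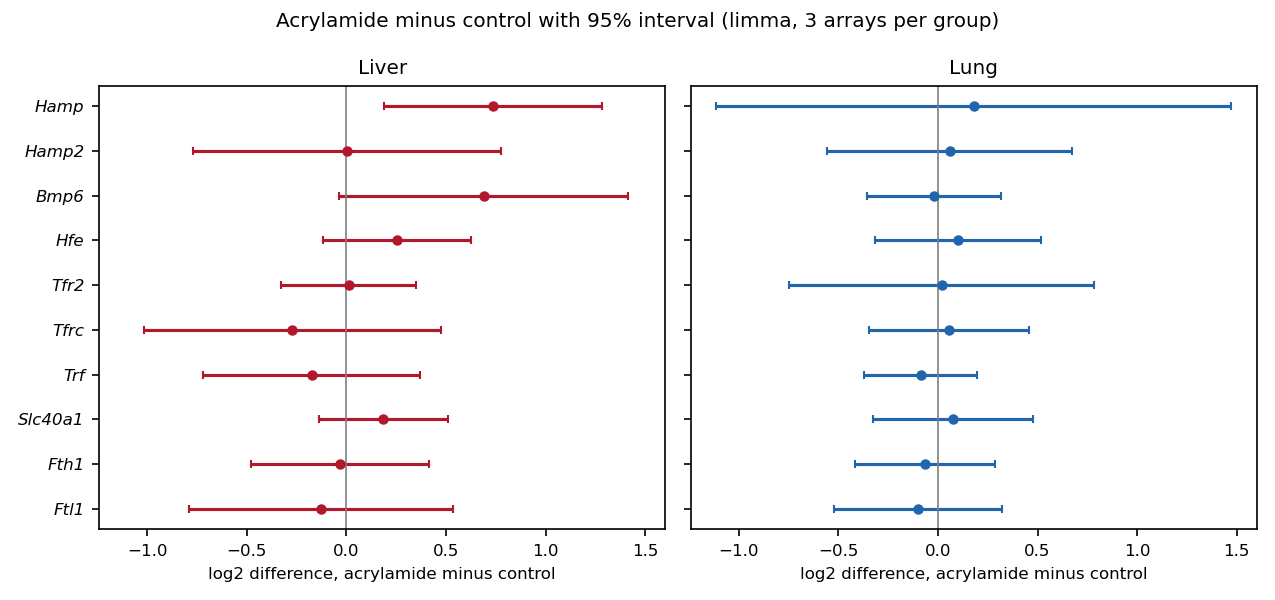
Acrylamide minus control in liver (left) and lung (right) for the 10 iron genes on a log2 axis; points are limma estimates and bars their 95% intervals, from 3 arrays per group. The interval of Hamp in liver, 0.19 to 1.28, is the one that lies wholly on 1 side of 0, without adjustment for the number of genes.

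Untreated liver and untreated lung differed far more than acrylamide and control did. Of the 10 genes, 10 were called (limma, adjusted p under 0.05), against 74.4% of the 22441 genes tested; 8 were higher in liver, against 42.4% of all genes, and 2 lower, against 32.0%. Hepcidin, the sensor TFR2, the exporter and transferrin stood higher in liver, and Bmp6 and Tfrc higher in lung. The median difference was 2.07 over the 10 genes and 0.27 over all genes. The scaling sets part of this: the median over all genes was -0.02 with quantile normalization and -1.04 with no scaling, and 57.0% of called genes were higher in liver with the percentile scaling, against 22.8% with none.

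Hamp2 had the largest difference of the 10. It stood at 7.77, 8.43 and 7.77 on liver controls, against -2.53, -2.43 and -1.94 on lung controls 4, 5 and 6, a difference of 10.29 ± 0.25 log2 units (SE, adjusted p = 5.52e-07). Tfr2 was 9.76 ± 0.27 higher in liver (adjusted p = 7.54e-07), and its second spot gave 9.78 ± 0.26. Lung controls 4, 5 and 6 read -3.60, -3.32 and -2.63 for Tfr2, still 28.01 to 64.8 times the background limit over the 6 lung arrays. Hamp was 8.13 ± 0.42 higher in liver, 281-fold, with an adjusted p of 8.33e-06. The groups lay far apart for all 3 of these genes.

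Slc40a1 was 4.76 ± 0.17 higher in liver (SE, adjusted p = 1.93e-06), with lung controls 4, 5 and 6 at -0.38, -0.26 and 0.11. Trf was 2.83 ± 0.13 higher in liver (adjusted p = 4.48e-06), and its other spot, the brighter of the 2 in liver and the dimmer in lung, gave 4.81 ± 0.15. The lung controls read 6.22, 6.29 and 6.11 for Trf, so the lung arrays carried a steady transferrin signal.

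Bmp6 went the other way, at -4.79 ± 0.27 (SE, adjusted p = 1.15e-05) or a ratio of 0.0363. Its lung controls stood at 1.43, 1.59 and 1.88, and the highest of all 6 liver arrays at -2.25. Tfrc was -1.84 ± 0.20 in liver relative to lung (adjusted p = 0.000208), and -1.21 ± 0.35 at its second spot. Lung controls 4, 5 and 6 read 0.33, 0.44 and 0.26 for Tfrc, all above the liver controls.

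Hfe and ferritin differed least, and their calls depended on the spot or the scaling. Hfe was 1.32 ± 0.18 higher in liver (SE, adjusted p = 0.000694), but 0.19 ± 0.16 at its second spot (adjusted p = 0.333 over all spots) and 0.01 with no scaling. Ftl1 was 1.21 ± 0.14 higher in liver (adjusted p = 0.000269), 1.65 ± 0.15 at its dimmer spot, but 0.24 with quantile normalization and -0.11 with no scaling. Fth1 was 0.75 ± 0.15 higher in liver (adjusted p = 0.00356), but -0.22 with quantile normalization (adjusted p = 0.135) and -0.56 with no scaling (adjusted p = 0.0143). Its lung controls 4, 5 and 6 stood at 7.45, 7.74 and 7.64. No direction between the tissues can therefore be given for Fth1. For Ftl1 it was higher in liver in 18 of 19 alternatives, the exception being no scaling, and the unscaled dimmer spot averaged 49305 ± 3642 units in liver controls and 39052 ± 3781 in lung controls (SD, n = 3 each).

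Ordered by group mean, Hamp ran 7.00 in liver with acrylamide, 6.27 in untreated liver, -1.69 in lung with acrylamide and -1.87 in untreated lung. The lung groups did not differ beyond their spread. Slc40a1 had the same order, with 4.77, 4.59, -0.10 and -0.17, and Hfe too, with 2.90, 2.64, 1.42 and 1.32. For both, the lung groups overlapped. Hamp2, with 7.99 in both liver groups and -2.24 and -2.30 in lung with and without acrylamide, and Tfr2, with 6.59, 6.58, -3.16 and -3.18 in that order, had neighbours within a tissue that did not differ beyond their spread. Tfrc and Bmp6 had both lung groups above both liver groups. Tfrc averaged 0.40 in lung with acrylamide, 0.34 in untreated lung, -1.77 in liver with acrylamide and -1.50 in untreated liver, and Bmp6 1.61, 1.64, -2.46 and -3.15 in that order, with groups overlapping within each tissue. Trf averaged 8.86 in liver with acrylamide, 9.03 in untreated liver, 6.12 in lung with acrylamide and 6.21 in untreated lung, the groups of each tissue overlapping. In the same order, Fth1 averaged 8.33, 8.36, 7.54 and 7.61 and Ftl1 8.96, 9.09, 7.78 and 7.88, again with overlap within each tissue.

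Over the 6 liver arrays, the level profiles most like that of Hamp among 13930 genes above background on all 6 were those of Rassf1 (Pearson r = 0.991), Ifi205 (0.989) and Kcnk13 (0.979). For Hamp2 they were C4bp-ps1 (0.990), Uba7 (0.990) and Ctsl (0.989), and for Tfrc they were Pter (0.976), Mir205hg (0.975) and Gpx8 (0.974). With 6 arrays and so many genes this is a description, and the points share the scaling and the brightness of their array. Rassf1, for example, stood at 1.09, 1.36 and 1.19 on acrylamide 27, 29 and 30 and at 0.84, 0.92 and 0.87 on controls 1, 3 and 4. Array 29 was the highest for Rassf1, as for Hamp.

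The wider iron pathway was described with 7 lists of 86 genes on the array. In liver, 85 were tested, of which 42 were higher and 43 lower with acrylamide; 0 were called by limma, 0 reached an unadjusted p under 0.05, against 6.09% of all genes, and 10 had groups that did not overlap, against 12.2%. These shares were no higher than over all genes. Of 7 target genes of BMP and SMAD signalling 6 were higher, with a median of 0.20 against -0.02 over all genes. Id3, an inhibitor of transcription factors, was 1.19 ± 0.54 higher (SE, unadjusted p = 0.0693, adjusted p = 0.784), Atoh8 0.44, and the inhibitory signal proteins Smad6 and Smad7 0.34 and 0.20. With 1 array left out, Id3 ran between 0.64 and 1.61 and Smad7 between -0.18 and 0.71. None of the 7 had groups that did not overlap.

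Of 18 hepcidin regulators, 5 were higher and 13 lower with acrylamide in liver, with a median of -0.13. The largest differences were those of Stat3 (-0.63), the signal carrier of interleukin 6, of Smad1 (-0.43), of Erfe (-0.34 ± 1.59, SE, and 1.39 without control 1), a hormone of red cell precursors, and of the receptor Acvr1 (-0.30). Hjv and Tmprss6, the BMP co-receptor and the protease that cuts it, differed by 0.09 ± 0.22 and 0.11 ± 0.14 and are named here outside the rule for their roles. Of 15 genes of import, export and iron reduction 5 were higher, and the ferrireductase Steap4 was 0.57 higher. The ferrireductase Cybrd1 (-0.61) and the ferritin receptor Scara5 (0.54) were not above background on acrylamide 30. Without that array Cybrd1 was at -0.24, and without control 3 Scara5 was at -0.04. Of 7 tested genes of iron regulatory proteins and ferritin turnover 4 were higher, with Herc2 at -1.06 and Pcbp2, an iron chaperone, at -0.25.

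Haem synthesis had 6 of 9 genes higher in liver, with the first enzymes of the pathway, Alas1 (0.53) and its erythroid form Alas2 (0.52), in front. Haem recycling had 6 of 13 higher, with Flvcr2 at -0.37 and the haemopexin receptor Lrp1 at -0.27. Mitochondrial iron genes had 10 of 16 higher, with the transporters Abcb10 at -0.33 and Abcb8 at -0.27. The medians of these lists were 0.03, -0.04 and 0.08.

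In lung, 43 of the 86 genes were higher and 43 lower with acrylamide, 0 were called by limma, 3 reached an unadjusted p under 0.05, against 4.97% of all genes, and 13 had groups that did not overlap, against 10.9%. The share at unadjusted p was thus no higher than over all genes. Those 3 were Id1 (0.52), a BMP target, Scara5 (0.45) and Cd163 (0.47), the receptor of macrophages for haptoglobin bound to haemoglobin. The list medians lay between -0.05 and 0.04, against -0.01 over all genes. Hepcidin regulators were split at 9 and 9, with Il6 at 0.24, or -0.03 without lung control 4. Erfe was above background on 3 of the 6 lung arrays only, so its difference is not given.

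Between the untreated tissues, 46 of the 86 genes were called higher in liver, against 42.4% of all genes, and 24 lower, against 32.0%. The counts of the lists below stand against the same shares. Of the 18 regulators of hepcidin, 7 were called higher in liver and 6 lower, near the shares of all genes. Those with the largest differences stood above lung: Fgl1, a secreted liver protein, by 10.34, Tmprss6 by 10.13 and Hjv by 6.48 log2 units. Erfe was also called higher (3.94, adjusted p = 0.0395), but only 1 of the 3 lung controls was above background, and without liver control 1 the difference was 2.21. The targets of BMP signalling went mostly the other way, with 5 of 7 called lower in liver. Among these were Smad6 (-3.41), Id1 (-2.56) and Smad7 (-1.88), while the other 2, Id2 (1.26) and Atoh8 (0.70), were called higher. Bmp6 was lower in liver, but Bmp2, of the regulator list, was 3.24 higher. The part of either in the target values was not tested. Id2, Atoh8 and Bmp2 are named here outside the rule. Among transport genes 6 were called higher and 8 lower, with Slc39a14, an importer of iron outside transferrin, at 4.12, the ferroxidase Cp at 3.61, lactoferrin (Ltf) at -6.91 (-8.72 to -5.54 with 1 array left out) and Cybrd1 at -4.62.

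Enzymes of haem synthesis were called higher in liver for 7 of 9, against the 42.4% of all genes, the largest difference being 3.70 for Cpox, and Alas2 was lower (-1.48). Haem recycling had 8 of 13 called higher, with the plasma haem carrier Hpx at 10.44 and Slc46a1 at 4.17. Mitochondrial iron and iron-sulphur genes had 12 of 16 called higher and 0 lower, with Hspa9, a mitochondrial chaperone, at 2.14 and Fdxr, a reductase that supplies electrons for cluster assembly, at 1.93. Aco1, which is also iron regulatory protein 1, was 2.79 higher.

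**Figure D4:**
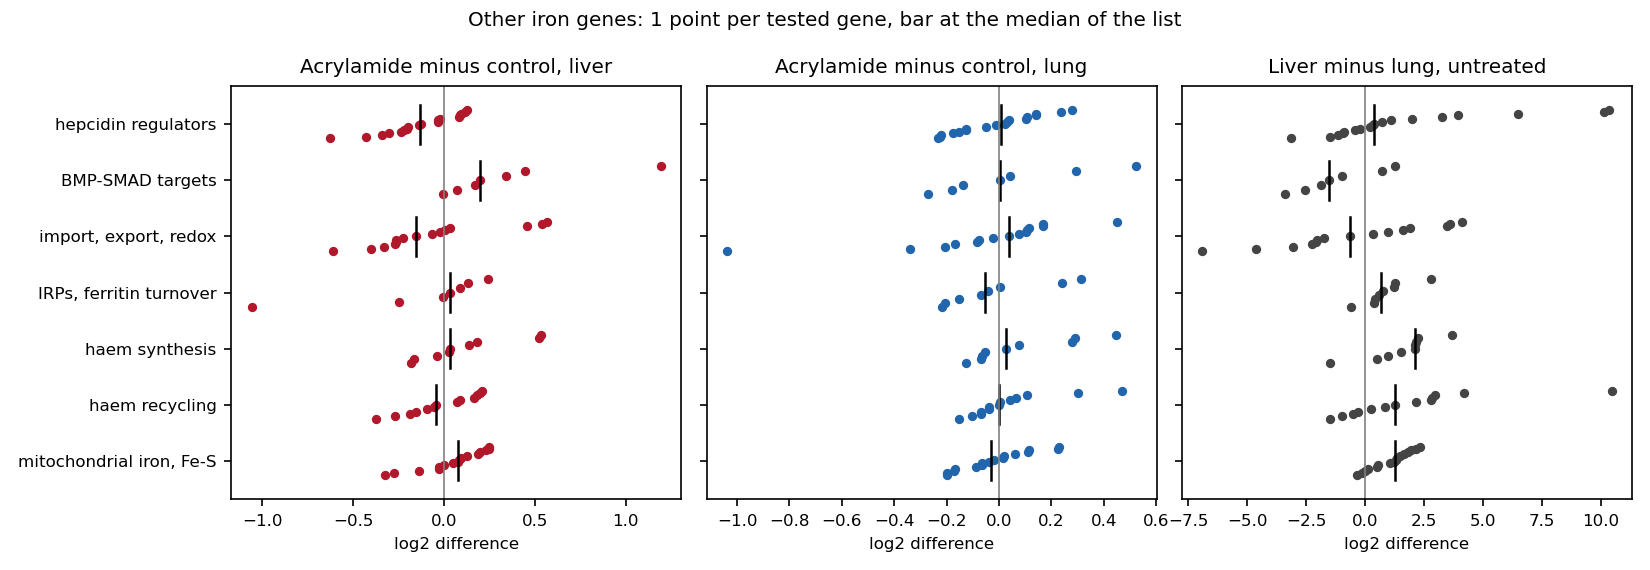
Differences of the 86 other iron genes by list, 1 point per tested gene and a bar at the list median, for acrylamide minus control in liver (left) and lung (middle) and for untreated liver minus lung (right); the horizontal axes are log2 differences and differ in range. The acrylamide differences scatter about 0, with list medians between -0.15 and 0.20 in liver, whereas those between the tissues reach 10.44 (Hpx) and -6.91 (Ltf, -8.72 to -5.54 with 1 array left out).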

How the data were processed

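RNA of 6 liver and 6 lung samples was measured, 1 array each, in 4 groups of 3. Each deposited file gives a linear Cy3 intensity for 62976 spots. The submitters' processing notes name Agilent Feature Extraction 10.7 as the software the authors used. The sources used here give neither which of its signals was deposited nor the genome build of the annotation. The series matrix of the authors, the same intensities times 1 factor per array, served as an alternative.

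From these files, after 1319 control spots had been dropped, the log2 of the 75th percentile of each array was subtracted from log2 intensity. This scaling assumes proportional signal, which the brightest spots did not show. A spot was above background past the 95th percentile of 308 negative control spots. Symbols came from the Entrez number (38054 spots), the accession (715) or the file (2242), with a RefSeq table of GRCm38.p6; 20646 spots had no name. A gene was tested at its spot with the highest mean, if that was above background on 3 or more of the fitted arrays, with limma 3.58.1 in R 4.3.3 and Benjamini-Hochberg adjustment over all genes (threshold 0.05). Fits ran within each tissue for acrylamide, over the untreated arrays for liver minus lung, and over all 12 for the difference between tissues. Promoter windows were aligned with Biopython 1.88, and 8 of the 10 genes had a window. The number of arrays, 3 per group, limits the precision.

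The 10 genes and the gene lists were chosen with earlier results of these data known. All 10 genes are named; of each iron list the 2 to 4 members with the largest differences are named, of each marker list at most 2, and for Hamp, Hamp2 and Tfrc the 3 most correlated genes in liver, passing over clone names and predicted genes; 1 gene that the rule takes is not reported here. Liver and lung share the title numbers 29, 30 and 4, but deviations from the group means of same-numbered arrays correlated at -0.02, -0.25 and -0.06 over 15796 genes, so the numbers were not taken as pairs. The alternatives tried were the series matrix, median and quantile scaling, other background filters and spot rules, an intensity trend, arrayWeights, each array left out, the slide row as a block and within rows, 1 fit of all arrays, and the title number as a block. The analysis with no scaling was chosen after seeing the data.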

Additional observations from a re-analysis of the deposited data

How the results depend on the processing

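The number of iron genes called stayed at 0 for acrylamide in liver, in lung and for the difference between the tissues under every alternative run, and lay between 8 and 10 for liver minus lung. In liver the number of all genes called was 0 to 1 with an array left out (1 without acrylamide 27) and 2 in 1 fit of all 12 arrays. In lung it was 0 with any array left out and 1 with no scaling. Liver minus lung gave 34703 calls when each spot was tested and 14767 to 15717 with an array left out. The difference between the tissues gave 139 calls with arrayWeights and 0 to 136 with an array left out, the most without liver acrylamide 30, and none was an iron gene. The cause of these moves was not tested, apart from the larger number of spots tested.

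Small liver differences turned round. Hamp2 was -0.0088 with median scaling, -0.077 with arrayWeights, -0.042 in row 1 and -0.28 to 0.22 with an array left out. Tfrc was 0.079 with arrayWeights, 0.37 in row 2 and -0.46 to 0.018 with an array left out. Tfr2 was -0.00032 with median scaling, -0.018 with arrayWeights, -0.084 in row 2 and -0.068 to 0.076 with an array left out. Trf was 0.0056 in row 1. Fth1 was 0.088 with quantile normalization, 0.11 in row 1, 0.073 with no scaling and -0.18 to 0.060 with an array left out. Ftl1 was 0.010 with the mean of both spots, 0.10 in row 1 and -0.42 to 0.029 with an array left out. In lung, Hamp was -0.37 in row 1 and -0.31 to 0.56 with an array left out, Bmp6 0.0080 and -0.12 to 0.10, and Hfe -0.063 to 0.23 with an array left out. For liver minus lung, Fth1 was -0.22 with quantile normalization and -0.56 with no scaling, and Ftl1 -0.11 with no scaling. The scaling sets the tissues' relative level, and the part of the nearly flat signal of bright spots in these changes was not tested. Hamp in liver ran between 0.53 and 0.93 with an array left out, where its sign could not change because its groups did not overlap.

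With the title number as a replicate block, the difference between the tissues was 0.52 for Hamp and 0.76 for Bmp6, 0 genes were called, and liver minus lung gave 16553 calls, including all 10 iron genes; not every array correlated best with its own number. Slide rows with a single array in a group rest on that array.

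With 3 arrays a group the intervals are wide, 0.19 to 1.28 for Hamp in liver. The brightest spots (Ftl1, Trf), and that of Hamp2 in liver, varied less than the 75th percentile of their arrays. Tfrc and Bmp6 came nearest to background in liver.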

Other observations

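Alveolar macrophage markers were higher with acrylamide in liver for 6 of 7 tested genes, 1 at unadjusted p under 0.05, against 6.09% of all genes, and 0 called by limma. The mean level of all 8 genes of the list was -2.44 and -2.38 on liver acrylamide 27 and 29. Both lay above controls 1, 3 and 4, at -2.86, -3.12 and -2.60. Acrylamide 30 read -2.50, but only 6 of the 8 genes were above background there, against 7 or 8 on the other liver arrays. Array 30 also had the highest background limit and the lowest percentile, so its mean cannot show whether the groups overlapped. This list holds genes of macrophages and of lung, and its part in the Slc40a1 and Bmp6 values was not tested.

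Of 13 acute phase genes, which answer to interleukin 6 in liver as Hamp does, 8 were higher with acrylamide in liver, 0 were called by limma and 0 reached an unadjusted p under 0.05, against 6.09% of all genes, and 1 had groups that did not overlap, against 12.2%. Their mean level was 4.66, 4.50 and 4.27 on liver acrylamide 27, 29 and 30, against 4.47, 4.08 and 4.57 on controls 1, 3 and 4. The part of interleukin 6 in the Hamp values was not tested. The 10 genes of red cell precursors averaged -1.91, -2.17 and -1.04 on those acrylamide arrays, against -2.06, -2.26 and -1.95 on the controls, with array 30 the highest. Only 6 of the 10 were above background on array 30, against 7 or 8 on the other liver arrays. That array also had the highest background limit and the lowest percentile, so its mean cannot be read as a level of these genes.

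The 2 spots of a gene gave acrylamide differences of like sign in liver for Hfe, Tfr2, Tfrc and Trf and of opposite sign for Ftl1. The difference between untreated liver and lung was 4.81 ± 0.15 log2 units (SE) at 1 Trf spot and 2.83 ± 0.13 at the other. The first was the brighter of them in liver and the dimmer in lung, and which transcripts each detects was not tested.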
